A study of Mus musculus with 20 samples.

Results

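The 5 genes described here, *Mmp9*, *Cd200*, *Serpinb8*, *Npl* and *Ccdc80*, are genes whose mRNA was higher in nephron progenitor cells (NPCs) without β-catenin than in control NPCs in low CHIR. They were picked by name for that difference, and their rows were found through the gene symbols that the deposited comparison tables pair with Ensembl identifiers. All 5 names matched 1 row each, out of 31130 genes in the table of normalized counts, of which 4316 carry a symbol. Each of the 5 had over 3 reads in all 20 libraries. Because the difference between β-catenin KO and CTRL in low CHIR chose them, that difference is described below without a test, and so is every other comparison that reuses the CTRL or β-catenin KO libraries of low CHIR. The comparisons of α-catenin KO and QCKO with CTRL in high CHIR are also given without a test of the 5 genes.

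NPCs are the mesenchymal cells of the embryonic kidney that form nephrons. The cells came from kidneys of mouse embryos at day 16.5 of gestation, were of the Cas9-eGFP genotype in every group (from crosses with SWR/J mice, Cas9 being driven by a ubiquitous promoter), and were grown as primary cultures with synthetic guide RNAs and mCherry mRNA for a knockout period of 48 h, then for a further day in low (1.25 µM) or high (5 µM) CHIR, before mCherry+ cells were sorted for bulk mRNA sequencing. In each CHIR condition there were 3 libraries of CTRL (guides against GFP) and 3 of β-catenin KO (guides against *Ctnnb1*), 2 of α-catenin KO (*Ctnna1*) and 2 of QCKO, in which the guides targeted *Cdh2*, *Cdh3*, *Cdh4* and *Cdh11* together. The cells were thus mixtures of edited cells sorted by a reporter of uptake, not clones, and the CTRL cells carried Cas9 and a cutting guide too. Replicate numbers stand for the 3 dates in the sample titles, which the groups share. The labels do not state what was done on those dates. There is no replicate 2 of α-catenin KO and no replicate 1 of QCKO.

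β-Catenin has a pair of known roles. It links cadherins to α-catenin at the cell membrane, and on a Wnt signal it accumulates, enters the nucleus and works with Tcf/Lef factors to activate target genes. CHIR imitates a Wnt signal by blocking GSK3β, the enzyme whose phosphorylation sends β-catenin to destruction. In the kidney a weak signal goes with self-renewal of NPCs and a strong one with the start of nephron formation. *Mmp9* encodes a secreted gelatinase that cuts collagen and other matrix proteins, and *Ccdc80* a secreted protein of the extracellular matrix. *Cd200* encodes a membrane glycoprotein that binds the Cd200 receptor on leukocytes, *Serpinb8* an intracellular serine protease inhibitor of clade B, and *Npl* the lyase that breaks down free sialic acid.

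The guides against *Ctnnb1* define the knockout and are therefore shown first. The guide table lists 4 entries for experiments with a 48 h knockout period, which hold 3 distinct sequences of 20 bases, since guides 5 and 6 are printed with the same letters although they are labelled for exons 3 and 6. The level of *Ctnnb1* itself was not analysed here.
*Ctnnb1* guide 1, labelled exon 2: atgagcagcgtcaaactgcg
*Ctnnb1* guide 3, labelled exon 3: agccaagcgctggacattag
*Ctnnb1* guide 5, labelled exon 3: gagattatgcagtgtcgtga

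On GRCm38.p6, RefSeq places *Mmp9* (ENSMUSG00000017737) at chr2:164940326-164955850, *Serpinb8* (ENSMUSG00000026315) at chr1:107589926-107608978 and *Npl* (ENSMUSG00000042684) at chr1:153503016-153549714. *Ccdc80* (ENSMUSG00000022665) at chr16:45093407-45127924 and *Cd200* (ENSMUSG00000022661) at chr16:45382111-45409060 lie on the same chromosome, 254.2 kb apart, with 5 annotated genes between them (*Slc35a5*, *Atg3*, *Btla*, *Gm30636* and *Gm30760*), of which 3 are protein-coding. RefSeq promoter sequences matched 3 of the 5 genes. Since these genes were picked for a difference after loss of a partner of Tcf/Lef factors, the bases upstream of their start sites are shown up to the edge of the annotated gene, on the strand of the gene, with matches to the motifs named below in capitals.
*Serpinb8*, chr1:107589756-107589925, plus strand: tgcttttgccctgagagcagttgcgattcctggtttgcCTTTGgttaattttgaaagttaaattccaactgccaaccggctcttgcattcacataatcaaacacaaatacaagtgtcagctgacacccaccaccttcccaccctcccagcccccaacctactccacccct
*Npl*, chr1:153549715-153549964, minus strand: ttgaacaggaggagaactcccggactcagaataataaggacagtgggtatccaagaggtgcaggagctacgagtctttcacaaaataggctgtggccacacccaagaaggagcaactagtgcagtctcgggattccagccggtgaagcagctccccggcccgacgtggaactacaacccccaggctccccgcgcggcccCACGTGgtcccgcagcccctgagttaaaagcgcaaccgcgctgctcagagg
*Cd200*, chr16:45409061-45409303, minus strand: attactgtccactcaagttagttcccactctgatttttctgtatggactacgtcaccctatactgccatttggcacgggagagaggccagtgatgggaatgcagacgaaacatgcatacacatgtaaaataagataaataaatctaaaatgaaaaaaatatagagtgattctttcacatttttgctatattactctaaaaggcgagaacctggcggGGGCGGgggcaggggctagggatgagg

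Motifs were searched on both strands in the 250 bases upstream of the start. The core of Tcf/Lef sites, CTTTG, lay 212 to 208 bases upstream of *Serpinb8* and was not found in the windows of *Npl* and *Cd200*, while 48.6% of all 32851 promoters in the table hold it. Its longer form CTTTGA, which overlaps the core by construction, was in none of the 3 windows and in 13.8% of all promoters. An AP-1 site, TGANTCA, lay 23 to 17 bases upstream of *Serpinb8*, inside the annotated gene and outside the stretch shown, and 6.75% of promoters hold one. *Npl* had an E-box, CACGTG, 51 to 46 bases upstream (6.02% of promoters), and *Cd200* a GC box, GGGCGG, 34 to 29 bases upstream (32.7%). These matches describe the letters of the windows and nothing more.

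Whole-series facts that touch these genes are few. Libraries held 18124772 to 28472412 reads over all genes, recovered from the normalized counts, and the lowest library held 6 reads of *Cd200*, 8 of *Serpinb8* and 9 of *Mmp9*. The study's text calls its sequenced samples biological replicates, but the labels do not say whether they came from separate animals, so p-values measure the spread between these libraries, which may be partly technical. Nephron progenitor markers (8 of 8 have a symbol) were present in all groups. Their summed level was 15680 to 21943 in CTRL and 13894 to 24297 in β-catenin KO in low CHIR, and 1483 to 2265 in CTRL and 7655 to 15384 in β-catenin KO in high CHIR. Few markers of other cells have a symbol, with 1 of 10 for interstitial stroma, 5 of 10 for ureteric epithelium, 1 of 8 for endothelium and 0 of 11 for leukocytes. In bulk libraries, fewer cells of a type and less RNA per cell cannot be told apart. CTRL replicate 2 of high CHIR stood apart, with a normalized total over all genes of 28329400 against 20081900 to 23675000 in the other 19 libraries. Without it, 3 of the 5 genes were called in β-catenin KO against CTRL in high CHIR in place of 4, beside 1003 of all genes tested in place of 1757.

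In low CHIR, all 5 genes were higher in every β-catenin KO library than in every CTRL library, by 3.79-fold (*Ccdc80*) to 17.2-fold (*Mmp9*). Levels are normalized counts, that is, read counts divided by 1 size factor per library, and fold changes were fitted on log2(normalized count + 1). Over all 16691 genes tested, 5.72% were higher without overlap in this comparison and 0.0659% (11 genes) were called higher, a call being an adjusted p under 0.05 with an absolute log2 fold change over 0.5. Nothing is read from the members' count, since this comparison chose them. The median log2 fold change was 3.40 over the 5 genes and -0.0036 over all genes tested.

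In high CHIR, 4 of the 5 genes were called higher in β-catenin KO than in CTRL, against 7.67% of all genes tested (1280 of 16691) and 20.9% of the 3939 tested genes with a symbol. No deposited comparison used here is of β-catenin KO, but the CTRL libraries of high CHIR stand in the tables that gave the 5 genes their symbols, so this side of the comparison was not free of the choice. They were *Mmp9*, *Serpinb8*, *Npl* and *Ccdc80*. *Cd200* went the other way, with all 3 β-catenin KO libraries below all 3 CTRL libraries, but did not pass the test. The median log2 fold change was 2.23 over the 5 genes and 0.016 over all genes. Only *Npl* was called when the fit held just the 6 libraries compared, a fit that called 240 of all genes tested in place of 1757.

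**Figure D1:**
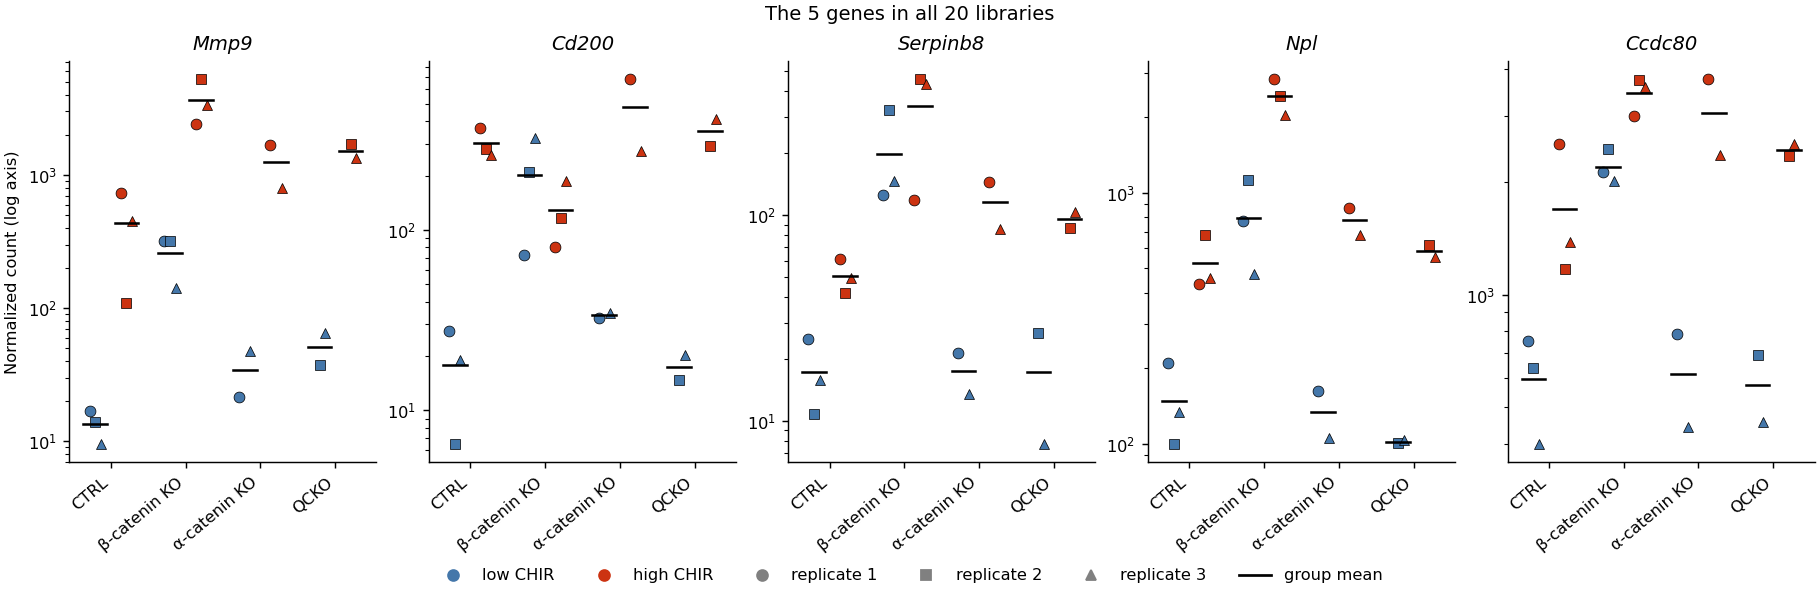
Normalized count (log axis) of each of the 5 genes in each of the 20 libraries, by knockout group, with low CHIR in blue, high CHIR in red, marker shape for the replicate (title date) and a line for the group mean. Scales differ between panels. *Mmp9*, *Serpinb8*, *Npl* and *Ccdc80* reached their highest group means in β-catenin KO in high CHIR, and *Cd200* sat lower there than in the other high CHIR groups.

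Of the secreted proteins, *Mmp9* had the widest range. In low CHIR its normalized counts in CTRL were 17.0, 14.1 and 9.53 in replicates 1, 2 and 3, and in β-catenin KO 320.3, 317.9 and 140.9. The β-catenin KO libraries were all far above the CTRL ones, with the lowest in replicate 3 of both groups. The fold change was 17.2, and between libraries of the same title date it ran from 14.8 to 22.6.

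In high CHIR, *Mmp9* was at 734.8, 110.0 and 453.7 in CTRL and at 2431, 5222 and 3353 in β-catenin KO. The groups did not overlap, and replicate 2 held both the lowest CTRL and the highest β-catenin KO value. *Mmp9* was 10.5-fold higher in β-catenin KO (log2 3.39 ± 0.57 SE, limma adjusted p = 0.0019). By date the ratio was 3.31, 47.5 and 7.39, and leaving out CTRL replicate 2 took the log2 fold change to 2.59 (limma adjusted p = 0.0052). With just the 6 libraries compared in the fit, the adjusted p was 0.052.

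*Ccdc80* moved less. In low CHIR it was at 750.6, 635.8 and 399.1 in CTRL and at 2118, 2446 and 2007 in β-catenin KO, a 3.79-fold difference with no overlap. In high CHIR the CTRL libraries were at 2523, 1171 and 1378 and the β-catenin KO libraries at 2994, 3745 and 3587. The groups again did not overlap, as for 14.8% of all genes tested in that direction, though CTRL replicate 1 came near to β-catenin KO replicate 1. The difference of 2.15-fold was called (log2 1.10 ± 0.30 SE, limma adjusted p = 0.029). This call was lost on leaving out CTRL replicate 2 or 3 or any 1 of the 3 β-catenin KO libraries of high CHIR (adjusted p from 0.056 to 0.12), and with just the 6 libraries compared (0.12).

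*Cd200*, the membrane protein, was at 27.7, 6.50 and 19.1 in CTRL in low CHIR and at 73.1, 208.9 and 324.3 in β-catenin KO. Every β-catenin KO library was above every CTRL library, with a fitted fold of 10.5, and by date the ratio spread from 2.64 to 32.1. In high CHIR it was at 368.6, 280.9 and 258.6 in CTRL and at 80.9, 116.4 and 187.3 in β-catenin KO. The knockout libraries were here all below the CTRL ones, a separation that 12.3% of all genes tested showed in that direction. The difference was not called (log2 -1.30 ± 0.54 SE, 95% interval -2.44 to -0.16, limma adjusted p = 0.13). In low CHIR the date-matched log2 differences were 1.37, 4.81 and 4.02, whereas in high CHIR they were -2.17, -1.26 and -0.46. The change of sign between the CHIR conditions was not tested, because the low CHIR libraries chose the gene.

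*Serpinb8*, the protease inhibitor, was at 25.0, 10.8 and 15.9 in CTRL and at 125.7, 323.9 and 145.7 in β-catenin KO in low CHIR. The groups did not overlap and the fitted fold was 10.5. In high CHIR it was at 61.2, 41.7 and 49.4 in CTRL and at 119.0, 456.6 and 435.4 in β-catenin KO. The knockout libraries were higher throughout, but replicate 1 was far below the other β-catenin KO libraries. *Serpinb8* was 5.64-fold higher (log2 2.50 ± 0.54 SE, limma adjusted p = 0.0092), and by date the log2 difference was 0.95, 3.42 and 3.12. Leaving out β-catenin KO replicate 1 took the log2 fold change to 3.13. With just the 6 libraries compared, the adjusted p was 0.067.

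*Npl*, the sialic acid lyase, was separated in both conditions. In low CHIR it was at 209.7, 99.7 and 133.4 in CTRL and at 774.8, 1122 and 474.0 in β-catenin KO, a 5.26-fold difference with no overlap. In high CHIR the CTRL libraries were at 433.2, 678.2 and 456.8 and the β-catenin KO libraries at 2830, 2423 and 2036. The lowest knockout library thus lay well above the highest CTRL library. *Npl* was 4.70-fold higher (log2 2.23 ± 0.31 SE, limma adjusted p = 0.00035), with date-matched ratios of 6.53, 3.57 and 4.46. It was called under all 16 alternatives, with adjusted p up to 0.00999.

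**Figure D2:**
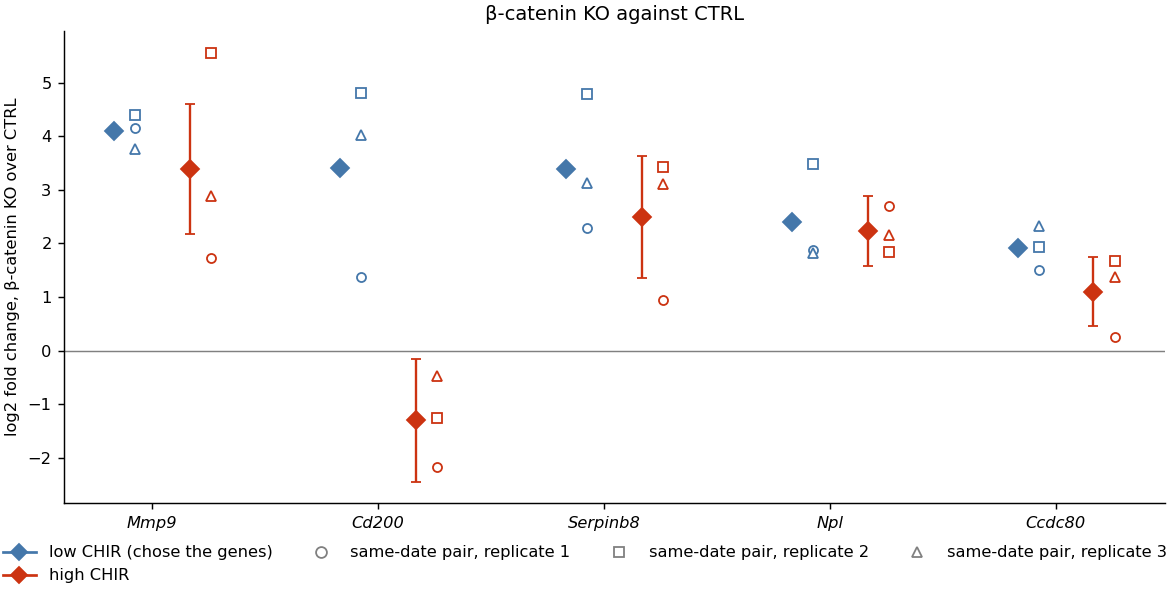
Log2 fold change of β-catenin KO over CTRL for each gene in low CHIR (blue) and high CHIR (red). Diamonds are fitted values, bars are 95% intervals and are drawn only for the tested comparison, and open symbols are differences between libraries with the same title date. *Cd200* is the gene whose values change sign, from 3.40 in low CHIR to -1.30 in high CHIR.

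In the same high CHIR comparison all 8 nephron progenitor markers were called higher in β-catenin KO, with a median log2 fold change of 3.28. Of all genes tested 7.67% were called higher there, and of those with a symbol 20.9%. None of the 8 was called in low CHIR (median -0.082), where 0.0659% of all genes tested were called higher. The markers' symbols come from the deposited comparisons too, some of which use the CTRL libraries of high CHIR. *Six2*, a transcription factor of self-renewing NPCs, was 558.3 ± 209.9 in β-catenin KO and 72.4 ± 10.3 in CTRL (SD, n = 3 each) in high CHIR (log2 2.88, limma adjusted p = 1.7e-05). The endothelial gene *Tek* was lower without overlap there, at 4.62 to 85.3 in β-catenin KO and 89.7 to 177.1 in CTRL (log2 -2.23, limma adjusted p = 0.088, not called). The progenitor markers and 4 of the 5 genes were called in the same direction in high CHIR. From low to high CHIR in CTRL, however, all 5 genes were higher and the summed markers lower. The markers went there from 15680 to 21943 down to 1483 to 2265. The part of cell state or of other cells in the 5 genes' levels was not tested.

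The response to CHIR was tested in α-catenin KO and QCKO, since neither comparison holds CTRL or β-catenin KO libraries. All 5 genes were called higher in high than in low CHIR in α-catenin KO, against 1.53% of all genes tested (6.17% of those with a symbol), and all 5 in QCKO, against 1.82% (7.16%). The 5 genes are all listed in the deposited table of high against low CHIR in CTRL cells, from which their symbols come, so that a response to CHIR in other groups is not a finding free of that table. The high CHIR libraries of α-catenin KO also stand in a table that lists *Mmp9*, *Serpinb8* and *Ccdc80*, and those of QCKO in one that lists *Mmp9*. For these genes the test is not independent of how they were found. The median log2 fold change was 2.64 for α-catenin KO and 2.62 for QCKO, beside 0.011 and -0.0057 over all genes. Over the same step the summed nephron progenitor markers went from 14184 to 19072 down to 1265 to 1803 in α-catenin KO and from 15458 to 15786 down to 1134 to 1451 for QCKO. The 5 ureteric markers with a symbol went from 417.3 to 1147 up to 1277 to 2297 in α-catenin KO and from 586.2 to 824.1 up to 1827 to 2113 in QCKO. In CTRL their sum overlapped, at 314.2 to 1286 in low CHIR and 874.8 to 1057 in high CHIR. Not all of these markers moved the same way there. The stromal gene *Meis1* went from 1887 to 2165 down to 949.0 to 1094 in α-catenin KO. In QCKO it went from 1740 to 3220 down to 890.3 to 1091. The endothelial gene *Tek* was at 5.16 to 7.64 and then 92.7 to 383.2 in α-catenin KO, and at 0.867 to 2.89 and then 220.9 to 357.2 in QCKO. Their part in the 5 genes' response was not tested.

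*Mmp9* was at 21.5 and 47.5 in the α-catenin KO libraries of low CHIR (replicates 1 and 3) and at 1691 and 796.7 in those of high CHIR. In QCKO it was at 37.3 and 64.6 in low CHIR (replicates 2 and 3) and at 1695 and 1347 in high CHIR. The CHIR conditions were far apart in both groups. With only 2 libraries a group, 24.6% of all genes tested were higher without overlap for α-catenin KO and 27.5% for QCKO. The log2 fold change was 5.14 ± 0.70 SE in α-catenin KO (limma adjusted p = 0.00056) and 4.91 ± 0.70 SE in QCKO (0.00055).

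*Ccdc80* rose from 783.8 and 443.0 in low CHIR to 3751 and 2360 in high CHIR in α-catenin KO (log2 2.33 ± 0.37 SE, limma adjusted p = 0.0019). In QCKO it rose from 688.8 and 456.0 to 2337 and 2528 (log2 2.11 ± 0.37 SE, limma adjusted p = 0.0030). No libraries overlapped between the CHIR conditions. The QCKO call was lost on leaving out low CHIR replicate 3 (adjusted p = 0.058).

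*Cd200* was called in both groups. In α-catenin KO it was at 32.7 and 34.8 in low CHIR and at 682.7 and 274.3 in high CHIR (log2 3.64 ± 0.66 SE, limma adjusted p = 0.0049). In QCKO it was at 14.7 and 20.2 in low CHIR and at 293.4 and 411.5 in high CHIR (log2 4.25 ± 0.66 SE, limma adjusted p = 0.0011). The α-catenin KO libraries of high CHIR stood well apart from each other, and that call was lost on leaving out replicate 1 of low CHIR (adjusted p = 0.056) or of high CHIR (0.081). The log2 fold change was 2.99 without replicate 1 and 4.30 without replicate 3 of high CHIR.

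*Serpinb8* had the least secure response. It was at 21.5 and 13.6 in low CHIR and at 145.6 and 85.7 in high CHIR in α-catenin KO (log2 2.64 ± 0.66 SE, limma adjusted p = 0.036). In QCKO it was at 26.9 and 7.71 in low CHIR and at 86.9 and 103.8 in high CHIR (log2 2.62 ± 0.66 SE, limma adjusted p = 0.033). The groups did not overlap, but both calls rest on few libraries. The α-catenin KO call was lost without any 1 of its 4 libraries (adjusted p from 0.096 to 0.26), and the QCKO call without low CHIR replicate 3 (0.40), without high CHIR replicate 2 (0.14) or 3 (0.21), and with edgeR on recovered reads (0.057). The QCKO log2 fold change was 3.46 without low CHIR replicate 2 and 1.78 without low CHIR replicate 3.

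*Npl* was at 162.6 and 105.2 in low CHIR and at 872.1 and 679.7 in high CHIR in α-catenin KO (log2 2.55 ± 0.38 SE, limma adjusted p = 0.0012). In QCKO it was at 100.6 and 103.2 in low CHIR and at 618.2 and 552.7 in high CHIR (log2 2.51 ± 0.38 SE, limma adjusted p = 0.00090). The low CHIR and high CHIR libraries were clearly separated in both groups.

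In CTRL and in β-catenin KO the same response is given as a description, since their low CHIR libraries chose the genes and the CTRL comparison supplied the symbols. In CTRL all 5 genes were higher in every high CHIR library, as were 12.9% of all genes tested, with log2 fold changes of 4.56 for *Mmp9*, 4.21 for *Cd200*, 1.56 for *Serpinb8*, 1.86 for *Npl* and 1.47 for *Ccdc80*. In β-catenin KO only *Mmp9*, *Npl* and *Ccdc80* were higher in every high CHIR library than in every low CHIR one, as were 4.63% of all genes. Their log2 fold changes were 3.84, 1.69 and 0.65. *Serpinb8* overlapped between the CHIR conditions (log2 0.66), and so did *Cd200*, the only one of the 5 with a value below 0 (log2 -0.49). With 1 library left out, *Serpinb8* ran from 0.33 to 1.29 and *Cd200* from -1.10 to -0.033. The median over the 5 genes was 1.86 in CTRL and 0.66 in β-catenin KO. Picking genes for low values in the CTRL and high values in the β-catenin KO libraries of low CHIR favours a larger difference in CTRL and a smaller one in β-catenin KO, and this cannot be told apart from a difference between the groups.

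**Figure D3:**
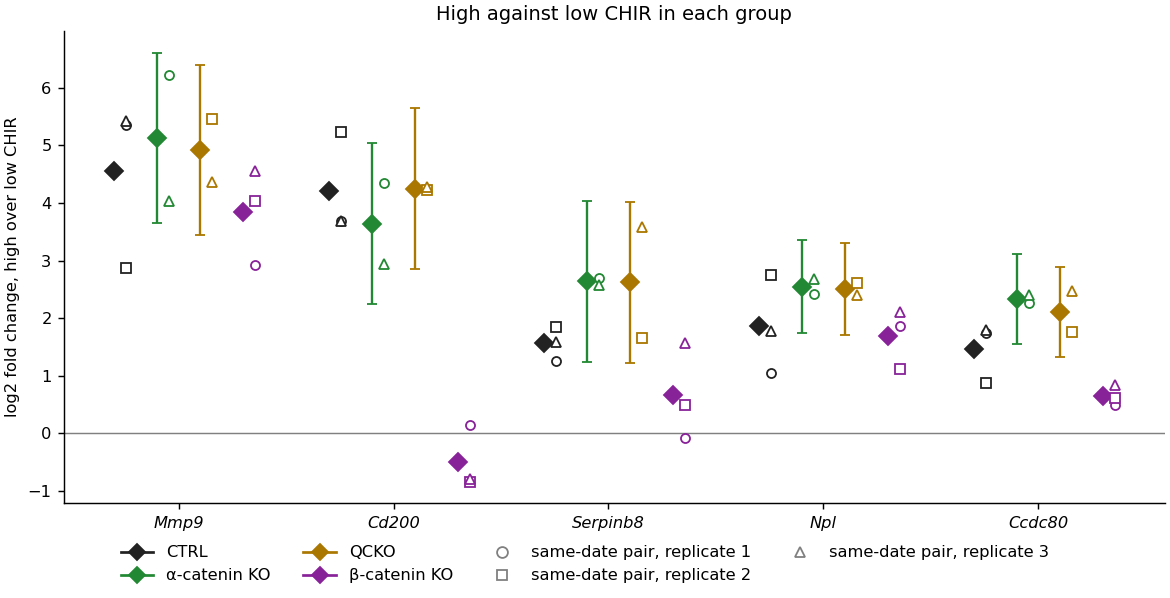
Log2 fold change of high over low CHIR for each gene in CTRL (black), α-catenin KO (green), QCKO (brown) and β-catenin KO (purple). Diamonds are fitted values, bars are 95% intervals and are drawn only for the tested groups, and open symbols are differences between libraries with the same title date. *Mmp9* and *Npl* are above 0 by more than 1 in all 4 groups, whereas *Cd200* is at 3.64 or more in 3 groups and at -0.49 in β-catenin KO.

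Loss of α-catenin or of the cadherins was also compared with CTRL in high CHIR, which asks how the genes stand when adhesion proteins other than β-catenin are removed. With all 20 libraries and no replicate block, limma called no gene of those tested (0%) in either comparison, nor did edgeR, while DESeq2 called 1 in each. Limma called 1 gene for α-catenin KO with the replicate block, and 143 for QCKO without CTRL replicate 1. An unadjusted p under 0.05 was reached in limma by 1211 genes (7.26%) for α-catenin KO and 1744 (10.4%) for QCKO. None of the 5 genes carries a test here. Their symbols come from deposited tables made with the CTRL libraries of high CHIR, and whether a gene stands in the deposited table of the same comparison, as *Mmp9*, *Serpinb8* and *Ccdc80* do for α-catenin KO and *Mmp9* for QCKO, already reflects these libraries.

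*Mmp9* lay above all CTRL libraries of high CHIR in both groups, with log2 fold changes of 1.80 (α-catenin KO) and 2.18 (QCKO), which came to 1.01 and 1.39 without CTRL replicate 2. *Serpinb8* lay above them in both groups too (log2 1.14 in α-catenin KO and 0.91 in QCKO). *Npl* did so narrowly in α-catenin KO (log2 0.59), where its lower library was at 679.7 and the highest CTRL library at 678.2. In α-catenin KO, *Cd200* (log2 0.53) and *Ccdc80* (log2 0.90) overlapped with CTRL. In QCKO, *Cd200*, *Npl* and *Ccdc80* overlapped with CTRL, at log2 0.22, 0.19 and 0.61. Of all genes tested, 9.16% were higher without overlap for α-catenin KO and 13.3% for QCKO. All 3 knockout comparisons in high CHIR share the same 3 CTRL libraries.

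In low CHIR, *Mmp9* was above all CTRL libraries in α-catenin KO (log2 1.22) and in QCKO (log2 1.82), and *Cd200* in α-catenin KO (log2 1.09), as were 6.21% and 9.48% of all genes tested. The other values overlapped with CTRL and lay between -0.46 and 0.17. These comparisons share the CTRL libraries of low CHIR that chose the genes and carry no test. The median log2 fold change over the 5 genes was 0.065 for α-catenin KO and -0.038 for QCKO, beside 3.40 in β-catenin KO against the same CTRL libraries. The value of 3.40 comes from the difference that chose the genes, which favours a large value there, so nothing is read from the gap.

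The order of the 8 group means differed between the genes. For *Mmp9*, from the lowest, the low CHIR groups came first and the high CHIR groups after them, each in the sequence CTRL, α-catenin KO, QCKO, β-catenin KO. Neighbours overlapped between α-catenin KO and QCKO in either condition and between β-catenin KO in low CHIR and CTRL in high CHIR. For *Npl* and *Serpinb8* the β-catenin KO group of low CHIR came above all 3 high CHIR groups with β-catenin, although its libraries overlapped those of α-catenin KO for both genes and, for *Npl*, those of CTRL and QCKO too. For *Ccdc80* it came between CTRL and QCKO of high CHIR and overlapped both, and α-catenin KO of high CHIR too. For *Cd200* the β-catenin KO groups of both conditions lay in the middle, above the 3 other low CHIR groups and below the 3 other high CHIR groups, and they overlapped each other, while the low CHIR one also overlapped CTRL, α-catenin KO and QCKO of high CHIR.

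Across the 20 libraries, Pearson correlations of log2 values between pairs of the 5 genes ran from 0.68 (*Cd200* with *Npl*) to 0.92 (*Serpinb8* with *Ccdc80*), and for each of the other 4 genes the lowest one was with *Cd200*. Libraries share groups and title dates, so these values describe the set. The set includes the low CHIR libraries of CTRL and β-catenin KO that chose the 5 genes. Picking genes for the same difference favours high correlations between them, so nothing is read from their size. Of 2868 genes with a symbol and a mean of at least 100, *Me1*, which encodes cytosolic malic enzyme, was the nearest in pattern to *Ccdc80* (r = 0.96) and to *Mmp9* (r = 0.92, followed by *Acot7* and *Ccdc80*). The amino acid transporter gene *Slc38a4* was the nearest to *Serpinb8* (r = 0.94) and the second nearest to *Ccdc80* (r = 0.95), and *Capg* the third (r = 0.94). *Npl* was nearest to *S100a10* (r = 0.94), then *Pgf* and *Gatm* (0.92 each). *Cd200* had a separate set, with the cell cycle gene *Ccnd2* (r = 0.93), the retinoic acid synthesis gene *Aldh1a3* (0.93) and *Serpinb7* (0.92).

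*Ccnd2* shared part of that pattern. Its mean was 4776 in CTRL and 12662 in β-catenin KO in low CHIR, and 28025 in CTRL and 18780 in β-catenin KO in high CHIR. As for *Cd200*, the knockout means lay between those of CTRL. Within β-catenin KO, however, the mean of *Ccnd2* was higher in high than in low CHIR, as were those of *Aldh1a3* and *Serpinb7*, and that of *Cd200* was lower. For each of these genes the libraries of the CHIR conditions overlapped there. *Slc38a4* had means of 1118 and 2525 in low CHIR and of 2122 and 4136 in high CHIR in the same order of groups, so that β-catenin KO was the higher of the pair in both.

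Other genes of the members' families were few, because symbols exist only for genes that the authors listed for a difference. Of 22 matrix metalloproteinases and their inhibitors, 5 have a symbol, none was called in low CHIR and 3 were called higher in β-catenin KO in high CHIR, where 7.67% of all genes tested and 20.9% of those with a symbol were. They were *Mmp13*, a collagenase (log2 3.08, limma adjusted p = 0.016), *Mmp16*, a membrane-type protease (1.78, limma adjusted p = 0.0066), and *Mmp23* (1.82, limma adjusted p = 0.0019). Of 12 secreted matrix genes, 3 have a symbol and 2 were called higher in high CHIR, namely *Col6a1*, a collagen VI chain (log2 3.20, limma adjusted p = 0.0079), and *Srpx* (2.72, limma adjusted p = 0.036).

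Of 15 genes for clade B serpins and Furin, 3 were tested and *Serpinb9*, a granzyme B inhibitor, was called higher in high CHIR (log2 1.98, limma adjusted p = 0.021). Of 14 genes of sialic acid metabolism, 2 were tested and *Nagk*, an N-acetylglucosamine kinase, was called higher (log2 0.96, limma adjusted p = 0.013). The 1 gene with a symbol among 8 Cd200 receptors and related proteins, *Cd276*, was not called (log2 -0.34). No gene of these lists was called lower in high CHIR. None was called in low CHIR either, where 0.0659% of all genes tested were called higher, and some had large but scattered differences there, such as *Col6a1* (log2 2.63 ± 0.67 SE, limma adjusted p = 0.26) and *Fbln2* (1.45 ± 0.49 SE, limma adjusted p = 0.52). The difference between the CHIR conditions was not tested for these lists. In that high CHIR comparison 2.86% of all genes tested were called lower.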

How the data were processed

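Bulk mRNA libraries (20 in 8 groups) were grouped by treatment label. The authors' processing notes name bcl2fastq, STAR, Subread featureCounts, Salmon and DESeq2 and the builds GRCm38, mm10 and GRCh38. Which program gave the deposited table is not given in the sources used here. The deposited signal values are counts of reads per gene, scaled by the authors with a single factor for each library. All values (100%) were whole multiples of 1 read within 0.02, so reads were recovered for the count tests, a check that is less telling in replicate 2 of β-catenin KO in low CHIR and replicate 3 of α-catenin KO in high CHIR, whose step is near 1. The 7 deposited comparison tables hold the authors' fold changes and p-values. Their symbols alone were used. RefSeq positions and promoters (GRCm38.p6) were matched by symbol.

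The log2(normalized count + 1) was fitted with limma 3.58.1 in R 4.3.3 (eBayes with trend, 1 mean per group, all 20 libraries, two-sided, Benjamini-Hochberg over 16691 genes with a mean of at least 10). A call needs an adjusted p under 0.05 with a log2 fold change above 0.5 in size. All libraries enter the shared estimate of the spread, also those that chose the genes. Alternatives were pseudocounts of 0.25 and 5, no filter, a filter at a mean of 100, quantile normalization, a log2 fold change over 1, only the groups compared, a replicate block, edgeR 4.0.16 (quasi-likelihood, TMM), DESeq2 1.42.0, and leaving out each library. The calling was tested on simulated data. Planned tests of the 5 genes in α-catenin KO and QCKO against CTRL in high CHIR are not reported, because these libraries had already sorted the genes.

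The 5 genes, the gene lists, the tests and the alternatives were chosen with earlier results of these data known. Besides the 5 genes, the genes named are the 3 nearest in pattern to each (Pearson, symbol, mean of at least 100). List genes called in β-catenin KO against CTRL are also named, at most 4 a list. *Six2*, *Tek*, *Meis1*, *Fbln2* and *Cd276* were chosen after their values were seen. Pairing comes from the dates in the sample labels, which same-numbered libraries share. For β-catenin KO and CTRL in high CHIR, deviations from group means correlated across genes at 0.149, 0.047 and 0.326 for replicates 1, 2 and 3. Pairs in the other tested comparisons correlated at 0.164 to 0.461. Counting intervals were not used, and reads without molecular barcodes are not independent molecules.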

Additional observations from a re-analysis of the deposited data

Results flagged for a closer look

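*Cd200* stood out because its differences between β-catenin KO and CTRL had opposite signs in the 2 CHIR conditions. All 3 date-matched differences were above 0 in low CHIR (log2 fold change 3.40) and all 3 below 0 in high CHIR (log2 fold change -1.30). The difference between the conditions was not tested, since the low CHIR libraries chose the gene, and the high CHIR value did not pass the test by itself (limma adjusted p = 0.13, range over the alternatives 0.060 to 0.33).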

How the results depend on the processing

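Of 220 alternative values of the 5 genes that had a test, 19 lost a call and the others kept their direction and their side of the threshold. Of 511 values given without a test, 19 changed sign. The calls lost are given beside each gene in the report. The sign changes all concern small differences of α-catenin KO or QCKO from CTRL, and the cause was not tested. Their values by other settings were, for QCKO in low CHIR, 0.092 for *Ccdc80* and for the median of the 5 genes with the replicate block, -0.055 (edgeR) and -0.040 (DESeq2) for *Cd200*, and 0.0029 for *Serpinb8* (DESeq2). With a library left out, *Cd200* ran from -0.12 to 1.19 (α-catenin KO, high CHIR) and from -0.028 to 0.46 (QCKO, high CHIR). For α-catenin KO in low CHIR, *Serpinb8* ran from -0.25 to 0.38, *Npl* from -0.42 to 0.21 and *Ccdc80* from -0.38 to 0.45. For QCKO in low CHIR, *Cd200* ran from -0.39 to 0.58, *Serpinb8* from -0.99 to 0.69 and *Ccdc80* from -0.33 to 0.26.

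With a library left out, the median log2 fold change of the 5 genes ran from 2.84 to 3.69 (β-catenin KO against CTRL, low CHIR), 0.59 to 1.29 (CHIR in β-catenin KO), -0.25 to 0.45 (α-catenin KO, low CHIR) and -0.39 to 0.26 (QCKO, low CHIR). Genes called ran from 861 to 3059 and members from 3 to 4 for β-catenin KO in high CHIR. They ran from 166 to 275 genes and 3 to 4 members for CHIR in α-catenin KO, from 243 to 264 genes and 3 to 5 members for CHIR in QCKO, from 0 to 1 gene for α-catenin KO and from 0 to 143 genes for QCKO in high CHIR, the latter without CTRL replicate 1. Where this leaves 1 library in a group, it is assumed to vary like the other groups.

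For β-catenin KO in high CHIR (1757 genes, 4 members), the fit of the 6 libraries compared called 240 genes and 1 member, the replicate block 2881 genes, and a log2 fold change over 1 called 1117 genes. For CHIR in α-catenin KO (559 genes), the replicate block called 1150 and DESeq2 870. For CHIR in QCKO (660 genes), the 2 groups compared gave 1792, the replicate block 1256 and DESeq2 1034. In high CHIR (0 genes each), α-catenin KO gave 1 gene with the replicate block and 1 with DESeq2, and QCKO 1 with DESeq2. The replicate block changed no call of the 5 genes. No scaling moved the median of all genes by over 0.1 on the log2 scale. Groups of 2 or 3 libraries limit precision, and so does depth for *Cd200*, *Serpinb8* and *Mmp9*, whose lowest libraries held 6, 8 and 9 reads.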
